A study of Mus musculus with 12 samples.

Results

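The 5 mouse miRNAs described here are mmu-miR-338-3p, mmu-miR-338-5p, mmu-miR-671-5p, mmu-miR-671-3p and mmu-miR-130a-3p (mmu, the prefix for mouse, is left out from here on where unambiguous). They were chosen by name as miRNAs reported in mitochondria or against transcripts of the respiratory chain that had low counts here. Earlier results of these data were known at that choice. All 5 were found among the 932 rows listed, of which 730 carry a mouse miRNA name and the rest, counted as miRNAs here, do not. Mitochondria were isolated from mouse hearts and their small RNA was sequenced, in 6 wild-type (WT) libraries and 6 libraries of db/db mice, a leptin receptor mutant used as a model of obesity and type 2 diabetes. The sources used here give neither age, sex or strain of the mice nor the method of isolation, and do not say that each library came from a separate mouse, so the p-values reflect only how these libraries vary, which may be technical. No other fraction of the heart was among the libraries, so whether a miRNA was inside mitochondria was not tested.

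A miRNA is cut as a duplex from the stem of a hairpin precursor. Either strand of the duplex, the 5p arm or the 3p arm, can be loaded into an Argonaute protein, where bases 2 to 8, the seed, select target transcripts. The 2 arms of a hairpin therefore start from the same precursor but carry different seeds. Argonaute 2 and a subset of nuclear-encoded miRNAs have been described inside mitochondria, where transcripts of the mitochondrial genome encode core subunits of the respiratory chain. miR-338-3p, known from neurons and oligodendrocytes, lowers Cox4i1, a nuclear-encoded subunit of cytochrome c oxidase, in axons. miR-671-5p is known for directing the cleavage of the circular RNA Cdr1as by Argonaute 2. miR-130a-3p is known from endothelial and blood cells and targets Pparg, a regulator of fat cell differentiation.

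The mature sequences come from RefSeq (GRCm38.p6), where all 5 names matched, as did 635 of the 730 listed. They are shown because the 2 arms of miR-338 and of miR-671 had fold changes of opposite sign. A further reason is that only 1 of the 5 seeds has relatives in this table. Capitals mark the seed.

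mmu-miR-338-5p: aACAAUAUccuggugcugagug
mmu-miR-338-3p: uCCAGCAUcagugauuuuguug
mmu-miR-671-5p: aGGAAGCCcuggaggggcuggag
mmu-miR-671-3p: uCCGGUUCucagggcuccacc
mmu-miR-130a-3p: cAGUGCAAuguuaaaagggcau

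The 5 seeds all differed from each other. The seeds of both miR-338 arms and both miR-671 arms were shared with 0 other mature mouse miRNAs of the RefSeq table, whereas the seed of miR-130a-3p was shared with 6, of which 2, miR-130b-3p and miR-301a-3p, were listed here. The miR-671 arms were rich in G and C, at 69.6% of bases in miR-671-5p and 66.7% in miR-671-3p. The other members had 40.9% (miR-338-3p and miR-130a-3p) and 45.5% (miR-338-5p). Ligation and amplification differ between sequences, so levels of different miRNAs can be compared only loosely.

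The precursors of miR-338 and miR-671 are printed with both arms in capitals, 5p first, to show that the 2 arms of each pair come from 1 stem.

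Mir338: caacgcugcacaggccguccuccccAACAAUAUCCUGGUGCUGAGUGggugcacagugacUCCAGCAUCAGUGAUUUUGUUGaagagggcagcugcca
Mir671: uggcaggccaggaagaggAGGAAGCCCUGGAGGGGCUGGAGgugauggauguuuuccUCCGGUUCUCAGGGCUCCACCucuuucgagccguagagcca

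In the GENCODE M21 annotation of GRCm38, Mir338 lies on chromosome 11 within an intron of Aatk, a kinase gene, on the same strand. A further miRNA gene, Mir3065, overlaps it on the opposite strand. Its arm miR-3065-3p was listed at 0 in all libraries but WT 6, where it had 7 reads, and miR-3065-5p was at 0 in all 12. Mir671 lies on chromosome 5 in a coding exon of Chpf2, a gene of chondroitin synthesis, on the same strand, and overlaps a retained intron transcript of Smarcd3 on the other strand. Mir130a lies on chromosome 2 outside any other annotated gene. The submitters' processing notes name GRCm39 as the genome of the reads, so no coordinates are given.

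Values are in RPM, reads scaled to a sum of 1000000 over all listed miRNAs. Recovered depth ranged from 412749 to 1382046 reads per library, and 1 read was worth 0.724 to 2.42 RPM. Where no read was seen, up to 3 are allowed for, which is 2.17 to 7.27 RPM, and this limit, like the intervals given here, covers counting error only. The muscle miRNA miR-133a-3p led all 12 libraries in abundance, and the 4 muscle markers together held 337987 to 439537 RPM. The 2 libraries with the fewest reads, WT 4 and db/db 6, also had the highest shares of reads in rows without a miRNA name (0.160% and 0.157%). Fold changes of members and arm ratios that rest on these libraries are given with and without them. The neural markers miR-9-5p, miR-124-3p and miR-219a-5p summed to 47.4 to 132 RPM in WT libraries and, in db/db libraries, to 53.1 to 160 RPM. In each genotype only 1 of the 3 was above 0 in all libraries. miR-219a-5p was at 0 in all db/db libraries but was scarce in WT too, with a mean of 2.70 RPM (log2 fold change -0.68 ± 0.70, SE). Its WT mean on the log2(RPM + 1) scale was 0.68, which places all its WT reads in 1 library. The part of these markers in the levels of miR-338 was not tested.

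The 5 miRNAs together had 1127 of 9276707 reads, or 0.0121%. The least abundant was miR-338-3p with 95 reads over all libraries and the most abundant miR-130a-3p with 468. By mean level miR-130a-3p ranked 187 of 932, miR-671-3p 208, miR-338-5p 272, miR-671-5p 281 and miR-338-3p 307. miR-671-3p and miR-130a-3p were detected in all 12 libraries, miR-338-5p and miR-671-5p in 11, and miR-338-3p in 10. No member had the same values as another row of the table.

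**Figure D1:**
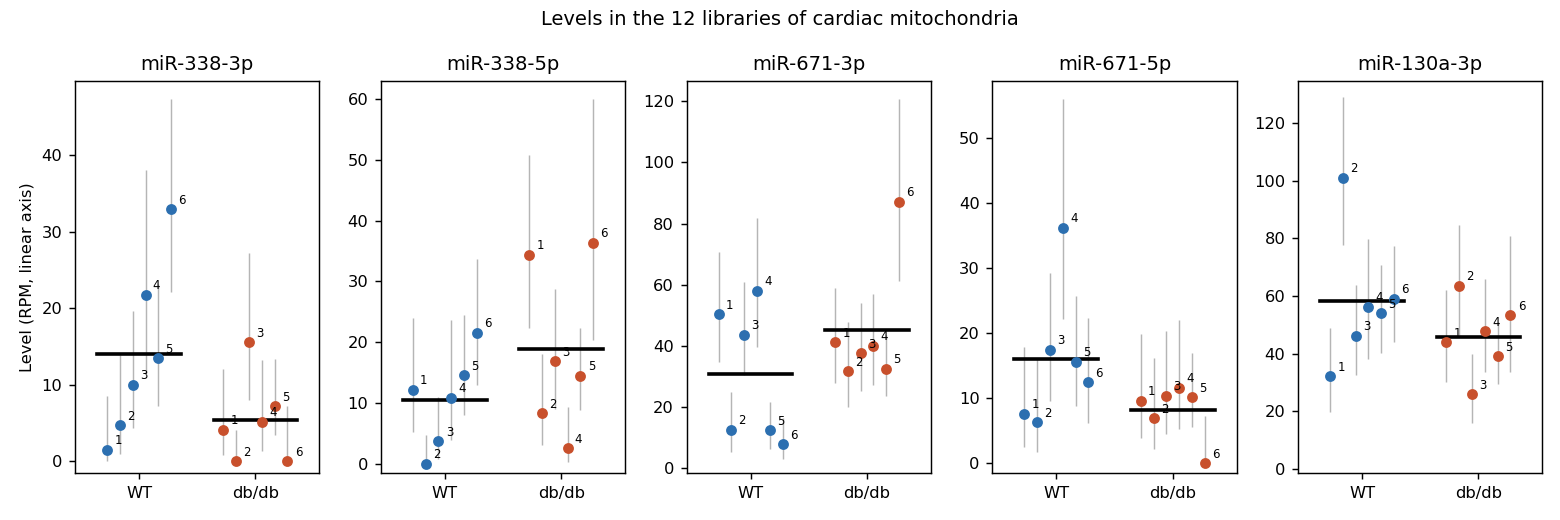
Level of each of the 5 miRNAs (RPM, linear axis) in the 6 WT and 6 db/db libraries; points are libraries with their number, grey lines 95% Poisson intervals of the reads (to 3 reads where the count is 0) and black bars genotype means. The genotypes overlap in all 5 panels, and db/db library 6 is at 0 for miR-338-3p and miR-671-5p and highest for miR-671-3p at 87.2 RPM.

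The comparison of db/db with WT asks how miRNAs in these preparations differ in a diabetic heart. In the hairpins of miR-338 and miR-671 the 2 arms had fold changes of opposite sign. miR-338-3p and miR-671-5p had lower means in db/db libraries, and miR-338-5p and miR-671-3p had higher means. miR-130a-3p had a slightly lower mean. None of the 5 passed the test over all miRNAs (limma with an abundance trend, Benjamini-Hochberg adjusted p of 0.717 to 0.733), where 1 of 646 miRNAs tested, 0.155%, did so: miR-22-3p, a muscle miRNA (-0.56 ± 0.13, log2 fold change and SE, limma adjusted p = 0.0466). That call was lost in 7 of the 12 limma fits with 1 library left out and under several other settings, with limma, edgeR and DESeq2 adjusted p of 0.000472 to 0.691 over all alternatives. At an unadjusted p under 0.05 the count was again 0 of the 5 members, against 58 of 646, or 8.98%. Since each preparation held RNA of many cells, fewer cells of a type and less RNA per cell cannot be told apart.

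miR-338-3p ranged from 1.53 to 32.9 RPM in WT libraries with a median of 11.7 RPM, and from 0 to 15.5 RPM in db/db libraries with a median of 4.65 RPM. WT 6 and WT 4 were highest, while db/db 2 and db/db 6 had 0 reads, which allows up to 4.14 and 7.27 RPM. The WT median was above 5 of the 6 db/db libraries and below db/db 3. WT libraries averaged 14.1 ± 11.6 RPM and db/db libraries 5.35 ± 5.76 RPM (SD, n = 6 each), so the ratio of the means was 0.380. On the log2(RPM + 1) scale the fold change was -1.45 ± 0.95 (SE), with a 95% interval of -3.34 to 0.45. It was -0.84 without WT 4 and db/db 6, and -2.48 and -0.59 with a pseudocount of 0.1 and 10 RPM.

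miR-338-5p, the other arm, went from 0 to 21.6 RPM in WT libraries (median 11.5 RPM) and from 2.58 to 36.3 RPM in db/db libraries (median 15.7 RPM). The 0 was WT 2, which allows up to 4.74 RPM, and the highest libraries were db/db 6 and db/db 1. Here 4 of 6 db/db libraries exceeded the WT median. WT libraries averaged 10.5 ± 7.72 RPM and db/db libraries 18.8 ± 13.8 RPM (SD, n = 6 each), so the ratio of the means was 1.79. The log2 fold change was 0.92 ± 0.81 (SE, 95% interval -0.71 to 2.55). It was 0.32 without WT 2, 0.66 without db/db 6 and 0.78 without WT 4 and db/db 6. With a pseudocount of 0.1 and 10 RPM it was 1.45 and 0.44.

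miR-671-5p ranged from 6.32 to 36.3 RPM in WT libraries with a median of 14.0 RPM, and from 0 to 11.6 RPM in db/db libraries with a median of 9.88 RPM. Each of the 6 db/db libraries was below the median of WT, although WT 1 and WT 2 were as low as they were. The highest value was WT 4 and the lowest db/db 6, where 0 reads allow up to 7.27 RPM, more than the 6.91 RPM of db/db 2. WT libraries averaged 16.0 ± 10.9 RPM and db/db libraries 8.11 ± 4.27 RPM (SD, n = 6 each), so the ratio of the means was 0.508. The log2 fold change of -1.03 ± 0.81 (SE; 95% interval -2.64 to 0.58) rested largely on these 2 libraries: it was -0.46 without db/db 6, and -0.19 ± 0.80 (SE) without WT 4 and db/db 6. With a pseudocount of 0.1 and 10 RPM it was -1.59 and -0.47.

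miR-671-3p was more abundant than its partner, at 7.95 to 58.0 RPM in WT libraries (median 28.2 RPM) and 31.8 to 87.2 RPM in db/db libraries (median 38.8 RPM). WT libraries fell into high values in 1, 3 and 4 and low values in 2, 5 and 6, whereas 5 of the 6 db/db libraries were within 31.8 to 41.3 RPM. Each of the 6 db/db libraries was above the median of WT, and db/db 6 was highest. WT libraries averaged 30.8 ± 22.3 RPM and db/db libraries 45.1 ± 21.0 RPM (SD, n = 6 each), so the ratio of the means was 1.46. Its log2 fold change of 0.81 ± 0.50 (SE, 95% interval -0.18 to 1.80) was 0.52 without WT 6 and 0.61 without db/db 6. It was 0.86 when WT 4, the highest WT library, was left out together with db/db 6. With a pseudocount of 0.1 and 10 RPM it was 0.85 and 0.57.

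miR-130a-3p had levels of 32.0 to 101 RPM in WT libraries (median 55.1 RPM) and 25.9 to 63.6 RPM in db/db libraries (median 45.9 RPM). WT 2 was highest, with 64 reads, and WT 1 and db/db 3 were lowest. The genotypes overlapped over most of their range: 5 of 6 libraries of each lay within the range of the other. WT libraries averaged 58.1 ± 23.2 RPM and db/db libraries 45.6 ± 12.8 RPM (SD, n = 6 each), so the ratio of the means was 0.785. The log2 fold change was -0.31 ± 0.39 (SE; 95% interval -1.09 to 0.47) and was -0.13 without WT 2, -0.16 without db/db 3 and -0.19 after quantile normalization. This interval was the narrowest of the 5.

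**Figure D2:**
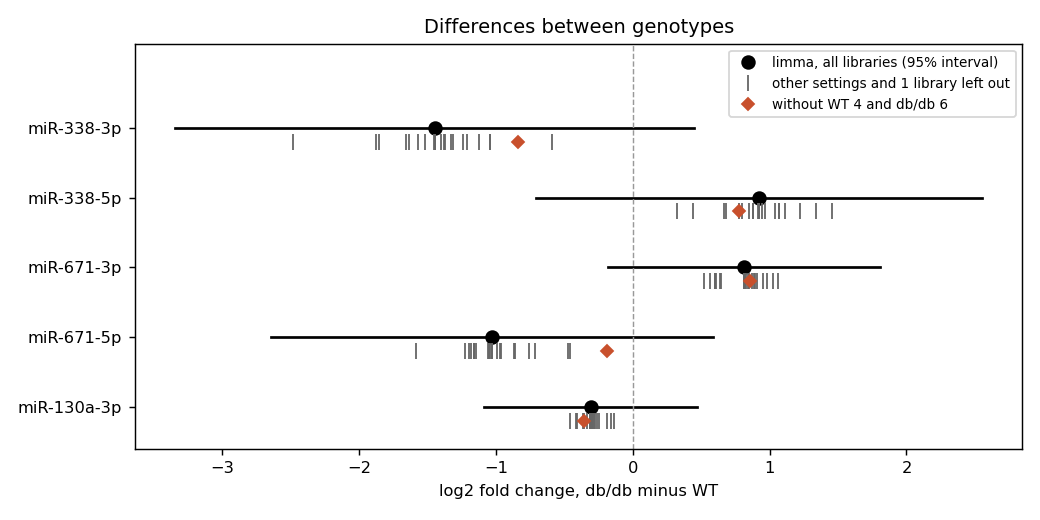
Log2 fold change (db/db minus WT, on log2(RPM + 1)) of the 5 miRNAs; black points and lines are the limma estimates with 95% intervals, grey ticks the other settings and fits with 1 library left out, and orange diamonds the fit without WT 4 and db/db 6. All 5 intervals include 0, and the diamond of miR-671-5p lies at -0.19 against -1.03 with all libraries.

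Count models on the recovered reads gave the same directions. The log2 fold changes of edgeR were -1.31 for miR-338-3p, 0.80 for miR-338-5p, -0.86 for miR-671-5p, 0.60 for miR-671-3p and -0.30 for miR-130a-3p (adjusted p of 0.570 to 0.798). It called 3 of 646 miRNAs (0.464%), none of them a member. DESeq2 called 8 of the 170 miRNAs for which it returned one (4.71%); the 5 members had no adjusted p, and unadjusted p of 0.179 to 0.461. No member had genotypes whose libraries did not overlap, a pattern that 6 of the 646 miRNAs (0.929%) showed.

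The arms of miR-338 and of miR-671 were then compared within each library. A ratio in which 1 arm had 0 reads, as in WT 2, db/db 2 and db/db 6 for miR-338 and db/db 6 for miR-671, depends on the depth of the library and on the 1 RPM added to each arm. For miR-338, the log2 ratio of 3p to 5p (1 RPM added to each) ranged from -2.39 to 2.52 in WT and from -5.22 to 0.78 in db/db libraries. The 3p arm was the higher arm in 4 of 6 WT libraries and in 1 of 6 db/db libraries, db/db 4. Over all reads it held 56.9% of the 116 reads in WT and 26.4% of the 110 reads in db/db. Both arms summed to 24.6 ± 17.9 RPM (SD, n = 6) in WT and 24.2 ± 13.8 RPM (SD, n = 6) in db/db.

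For miR-671 the ratio ranged from -0.59 to 2.57 in WT and from 1.59 to 6.46 in db/db libraries. The 3p arm was the higher arm in 4 of 6 WT libraries, all but WT 5 and WT 6, and in 6 of 6 db/db libraries. Of the 196 WT reads 64.8% were 3p, and of the 237 db/db reads 81.9%. Leaving aside db/db 6, where the 5p arm had 0 reads, the other 5 db/db libraries held 76.3 to 82.1% of reads in 3p, against 38.9 to 86.8% in the WT libraries. Both arms together came to 46.8 ± 29.7 RPM (SD, n = 6) in WT and 53.2 ± 17.4 RPM (SD, n = 6) in db/db.

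The mean log2 ratio of 3p to 5p of miR-338 was 0.46 ± 1.64 in WT and -1.91 ± 2.23 in db/db (SD, n = 6 each), a difference of -2.37 (exact permutation test, two-sided, unadjusted p = 0.0606). For miR-671 it was 0.75 ± 1.14 and 2.59 ± 1.90 (SD, n = 6 each), a difference of 1.84 (exact permutation test, two-sided, unadjusted p = 0.0390). Over the 142 hairpins with both arms tested the adjusted p was 0.546 for each, so neither passed. By the unadjusted exact permutation p, 10 of these 142 hairpins (7.04%) were under 0.05. Arms of opposite sign were common, in 79 of the 142 hairpins (55.6%). By size, the difference of miR-338 ranked 3 and that of miR-671 ranked 14 of 142, where the median size was 0.58. These ranks took no account of abundance. The less abundant arm averaged 9.71 RPM for miR-338 and 12.0 RPM for miR-671. The median standard error of miRNA log2 fold changes was 0.82 at means of 1 to 10 RPM and 0.58 at 10 to 100 RPM. It was 0.14 at 1000 RPM and over. Whether the differences were large among hairpins of like abundance was not tested.

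The RPM added and single libraries moved these ratios. With 0.1 RPM added to each arm the difference was -3.94 for miR-338 and 2.44 for miR-671, and with 10 RPM it was -1.03 and 1.04 (exact permutation test, two-sided, unadjusted p = 0.0606 and 0.0368, and 0.0498 and 0.0390). Without db/db 6 the difference was -1.71 for miR-338 and 1.07 for miR-671 (exact permutation test, two-sided, unadjusted p = 0.123 and 0.0801), and without WT 4 and db/db 6 it was -1.61 and 1.05 (exact permutation test, unadjusted p = 0.175 and 0.143). For miR-671 the unadjusted p also rose above 0.05 without WT 2, WT 4, WT 5 or WT 6. Without WT 1, which had the highest ratio in WT, the difference of miR-671 was 2.21. Its exact permutation p was then 0.00216 unadjusted and 0.102 adjusted over 142 hairpins. For miR-338 the unadjusted p fell under 0.05 without WT 1, db/db 3 or db/db 4.

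**Figure D3:**
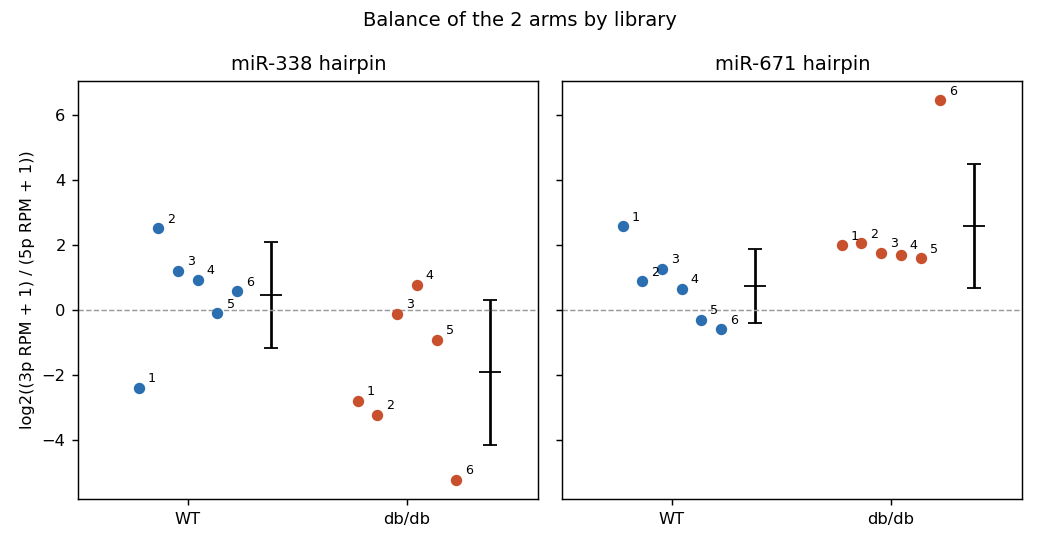
Log2 ratio of the 3p to the 5p arm (RPM + 1 each) of the miR-338 and miR-671 hairpins in each library; points carry library numbers, black bars are genotype means with SD (n = 6 each). The db/db libraries of miR-671 all lie at 1.59 or higher, WT library 1 lies above 5 of them, and db/db library 6 has the lowest ratio of miR-338 (-5.22) and the highest of miR-671 (6.46).

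The arm of miR-130a not among the members, miR-130a-5p, had 12 WT reads and 8 db/db reads, against 257 and 211 for miR-130a-3p. It was above 0 in 3 WT libraries and in 1 db/db library. Its log2 fold change was -0.83 ± 0.85 (SE, limma adjusted p = 0.717), so the 2 arms of miR-130a had the same sign. The 2 listed miRNAs that share the seed of miR-130a-3p were as scarce as miR-130a-5p. They are printed beside miR-130a-3p to show where they differ.

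mmu-miR-130a-3p: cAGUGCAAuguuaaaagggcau
mmu-miR-130b-3p: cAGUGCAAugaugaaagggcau
mmu-miR-301a-3p: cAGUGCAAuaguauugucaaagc

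miR-130b-3p differed from miR-130a-3p by U11A and A13G, with positions counted from the 5′ end and the base of miR-130a-3p first, and was its nearest mature sequence in the RefSeq table. The other members differed from their nearest mature sequence at 6 to 8 positions, in an alignment without gaps. miR-130b-3p had 18 WT reads and 2 db/db reads, and 3 WT and 5 db/db libraries were at 0. miR-301a-3p had 14 reads in WT, 13 of them in WT 5, and 19 in db/db. The log2 fold changes were -1.12 ± 0.86 and 0.54 ± 0.95 (SE; limma adjusted p = 0.717 and 0.823). Other relatives fixed by name were miR-130b-5p, with 1 WT read and 4 db/db reads, and miR-301a-5p, with 4 reads, all in WT 6.

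In order of mean level miR-130a-3p was followed by miR-671-3p, miR-338-5p, miR-671-5p and miR-338-3p, and most neighbours in that order were not separated beyond their spread. miR-130a-3p exceeded miR-671-3p in 8 of 12 libraries (mean log2 difference in level 0.62 ± 1.27, SD). miR-671-3p exceeded miR-338-5p in 10 of 12 (1.57 ± 1.54, SD). miR-338-5p exceeded miR-671-5p in 7 of 12 (0.11 ± 2.13, SD), in 2 of 6 WT and 5 of 6 db/db libraries. miR-671-5p exceeded miR-338-3p in 9 and equalled it in 1 of 12 (0.62 ± 1.09, SD). By genotype means, miR-338-5p was the lowest of the 5 in WT and ranked 3 in db/db.

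The spread between libraries is set here beside what the counting of reads alone would give, as a description that was not tested. The SD was larger than the counting SD, computed from 1 common share of reads in a genotype, in 10 of 10 combinations of member and genotype, by 1.20 to 3.55 times. The smallest excess was that of miR-671-5p in db/db libraries (4.27 against 3.56 RPM) and the largest that of miR-671-3p in WT libraries (22.3 against 6.27 RPM). Among rows with a mean of 10 to 100 RPM, where 4 of the 5 members stood, the median standard error of the log2 fold change was 0.58, against 0.14 at a mean of 1000 RPM and over. The standard errors of the members were 0.39 to 0.95.

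**Figure D4:**
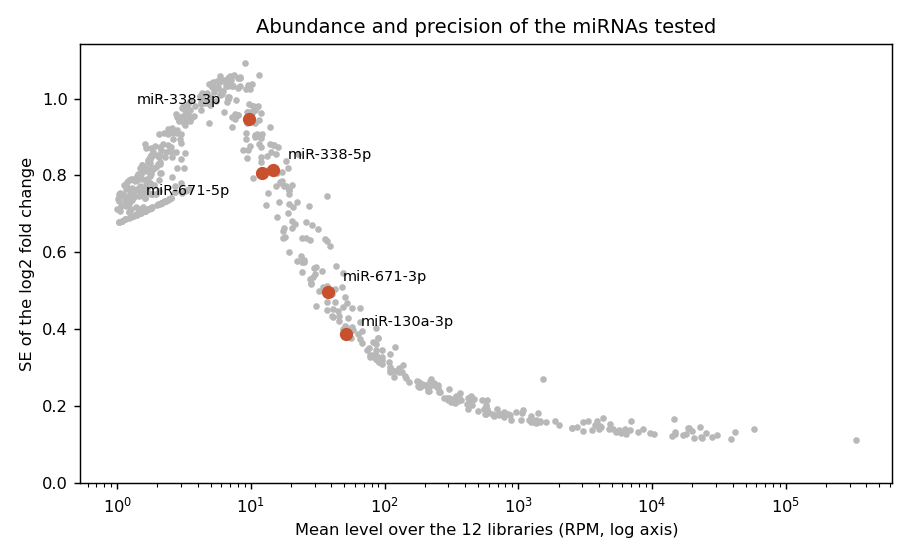
Standard error of the log2 fold change against mean level over the 12 libraries (RPM, log axis) for the 646 miRNAs tested; the 5 members are in orange. The members lie on the steep part of the curve, from 0.39 for miR-130a-3p to 0.95 for miR-338-3p.

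Likeness of pattern was measured as the root mean square difference of log2(RPM + 1) over the 12 libraries, each miRNA centred on its mean, among named miRNAs with a mean of at least 10 RPM. The pattern of miR-338-3p was closest to that of another member, miR-671-5p (1.05), and then to miR-1983 (1.13), where the median over 287 candidates was 1.69. Closest to miR-338-5p were miR-3535 and miR-700-3p (1.20 each, median 1.53), and closest to miR-671-5p were miR-362-5p (0.73) and miR-29c-3p (0.90, median 1.33). miR-671-3p lay nearest to let-7d-5p and miR-486a-3p (0.69 each, median 1.10), and miR-130a-3p to miR-25-3p (0.40) and miR-425-5p (0.43, median 0.68). Steady miRNAs score low on this measure: miR-700-3p varied by 0.37 around its mean, against 1.42 for miR-338-5p. A miRNA that did not vary at all would score a member's own deviation. That was 0.47 for miR-130a-3p, little above its closest scores, 0.93 for miR-671-3p, 1.18 for miR-671-5p and 1.56 for miR-338-3p.

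A list of 28 miRNAs described in mitochondria or against respiratory chain transcripts, the 5 members included, was tested in full. None passed over all miRNAs with limma or edgeR. With limma 6 of the 28 had an unadjusted p under 0.05, against 58 of 646 over all rows tested. With edgeR 6 of the 28 did, against 159 of 646. DESeq2 called 2, miR-223-3p (lower in db/db) and miR-92a-3p (higher), of the 20 with an adjusted p, against 8 of 170 over all rows. Limma with a replicate block called 4, these and miR-195a-5p and miR-21a-5p (both lower), against 9 of 646. Limma without WT 1, WT 3 or db/db 5 called 2, 1 and 3 of the list, against 6, 6 and 7 over all rows. The other fits to 11 libraries called 0 of the list. These counts took no account of abundance, and standard errors were smaller at higher levels. A mean of at least 10 RPM was reached by 26 of the 28, against 304 of 646 over all rows. Refitted at that limit, limma gave an unadjusted p under 0.05 to 6 of the 26, against 44 of 304. Whether the list differed from rows of like abundance was not tested. With limma on all 12 libraries, 18 of the 28 had negative and 10 positive values, and their log2 fold changes had a median of -0.12. Over all rows tested, 338 of 646 were negative and the median was -0.04. Without the 5 members 15 of 23 were negative, with a median of -0.10. The 2 arms of miR-181c, which acts on the mitochondrial transcript of Cox1 in the heart, had the same sign: mean levels in WT and db/db were 199 and 164 RPM for miR-181c-5p and 31.0 and 17.2 RPM for miR-181c-3p, whose log2 fold change was -0.73 ± 0.55 (SE). The muscle miRNA miR-1a-3p, which raises translation of mitochondrial transcripts, averaged 62696 RPM in WT (log2 fold change -0.25 ± 0.14, SE; limma adjusted p = 0.716).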

How the data were processed

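Small RNA libraries of cardiac mitochondria (6 WT, 6 db/db) came in 1 table. The authors labelled its values TPM, but all columns sum to 1000000 and hold whole multiples of 1 read's worth, so the deposited unit was read as RPM, without a length term. Per the submitters' processing notes the genome was GRCm39; the sources used here name neither aligner nor miRNA annotation. With 1 total for each library, 100% of the RPM became whole reads (tolerance 0.01 read).

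The members and lists were chosen with earlier results of these data known. limma 3.58.1 (R 4.3.3) was fitted with an abundance trend to log2(RPM + 1) of the 646 rows averaging 1 RPM or more, which all 5 members did, without a replicate block. Fold changes on this scale depend on the pseudocount at low levels. p-values were two-sided, Benjamini-Hochberg adjusted over all rows and called under 0.05. Reads were also tested with edgeR 4.0.16, where 3 rows were called, and DESeq2 1.42.0, where 8 of the 170 rows with an adjusted p (4.71%) were. Arm ratios were compared by exact permutation; the fixed adjustment over the 2 hairpins alone is not printed, since they were chosen with results known, and adjustment over 142 hairpins was added after seeing the data, as was an exact permutation of each member. Named miRNAs were by rule the members, the other arm of miR-130a, seed relatives, miR-130 and miR-301 names, the 2 nearest patterns and any row called; miR-3065 and the list members named were chosen after their values were seen. Sequences came from RefSeq. The fit was also run on simulated data. Its slope and interval coverage were examined there only at 100 RPM and over, above the mean of every member, so they do not bear on the members. Plots were drawn with matplotlib 3.10.9 in Python 3.11.15.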

Additional observations from a re-analysis of the deposited data

Results flagged for a closer look

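The 5 members, both arm ratios and the recovered reads were searched in each genotype for an outlying library. Of these 16 groups of 6 values 4 held one. By chance about 1 in 20 would, that is 0.8, if values were independent and normally distributed, which low counts need not be. The 4 are not independent, since miR-671-3p and the miR-671 ratio of db/db 6 share their 36 reads. Whether 4 is an excess was therefore not tested. miR-671-5p was 36.3 RPM in WT 4 and at most 17.5 RPM in the other WT libraries, a gap of 0.627 of the range. miR-671-3p was 87.2 RPM in db/db 6 and at most 41.3 RPM in the other db/db libraries (0.829 of the range). The log2 ratio of 3p to 5p of miR-671 was 6.46 in db/db 6, with 2.05 as the next (0.906 of the range), with 36 reads of the 3p arm and 0 of the 5p arm. Recovered reads numbered 1382046 in db/db 5 and at most 773784 in the other db/db libraries (0.628 of the range).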

How the results depend on the processing

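Some alternatives could not change the fold change of a member: other filters, no trend, the replicate block and the exact permutation leave it as it was. Fits with 1 library left out share most of their libraries. With these included, all 124 alternative values of the 5 members kept the direction of the fold change and none was called (limma and edgeR adjusted p of 0.517 to 0.939, with none given by DESeq2 and the exact permutations). They ranged from -2.48 to -0.59 for miR-338-3p, 0.32 to 1.45 for miR-338-5p, -1.59 to -0.19 for miR-671-5p, 0.52 to 1.06 for miR-671-3p and -0.46 to -0.13 for miR-130a-3p; at a mean of at least 10 RPM miR-338-3p was not tested. Against 1 miRNA called over all rows, limma called 0 when the pseudocount was 0.1 or 10 RPM, when rows were unfiltered or filtered at 10 RPM, after quantile normalization, without WT 4 and db/db 6, and with no trend. Median-of-ratios scaling lost miR-22-3p and called 2 others, miR-486a-5p and miR-486b-5p; the replicate block called 9, edgeR 3 and DESeq2 8, each with miR-22-3p and none with a member. Fits to 11 libraries made 0 to 7 calls. Those that lacked WT 1 or WT 3 made 6, those that lacked db/db 4, db/db 5 or db/db 6 made 3, 7 and 1, and each of the others made 0. The arm ratio differed by -1.03 for miR-338 and 1.04 for miR-671 with a pseudocount of 10 RPM, and by -3.94 and 2.44 with 0.1 RPM. With 1 library left out it ranged from -2.94 to -1.71 and from 1.07 to 2.21; without WT 4 and db/db 6 it was -1.61 and 1.05. Over 142 hairpins the adjusted p ranged from 0.307 to 0.830 and from 0.102 to 0.794 under these alternatives. What causes these changes in calls was not tested. The replicate block is not a paired design: same-numbered libraries deviated together with r of -0.06 to 0.31, over 0.1 in 2 of 6 pairs, and 2 of 6 WT libraries correlated best with their own number. With it, the 64 sign flips of the arm ratio gave unadjusted exact permutation p of 0.0313 (miR-338) and 0.0938 (miR-671). The value of miR-338 is the lowest p that 64 sign flips can give. Adjusted over 142 hairpins, the sign flips gave p of 0.555 and 0.740. The block leaves the differences themselves unchanged, at -2.37 and 1.84 for the arm ratios and -1.45 for miR-338-3p. Depth bounds the libraries at 0 of miR-338-3p, miR-338-5p and miR-671-5p: at 412749 reads, 0 reads allow up to 7.27 RPM.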
